A study of Mus musculus with 26 samples.

Results

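Regulatory T cells (Treg) act on their surroundings in part through what they secrete, and 7 genes for such factors were followed through 13 groups of sorted mouse CD4+ T cells: Il10, Ebi3, Il12a, Fgl2, Areg, Lgals1 and Penk. They were taken by symbol from a count table of 24411 genes, in which all 7 have a line. An expression filter left 12227 genes for testing, 6 of the 7 among them. Il12a did not pass it, so its reads are described and not tested.

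IL-10 is a cytokine that restrains dendritic cells, macrophages and T cells through the IL-10 receptor and STAT3. EBI3 and the p35 chain that Il12a encodes pair to form IL-35, while each also serves other members of the IL-12 family. FGL2 is a fibrinogen-related protein whose secreted form inhibits through Fc gamma receptors. Amphiregulin, from Areg, is an EGF receptor ligand through which tissue Treg promote repair of muscle, lung and skin. Galectin-1, from Lgals1, is a glycan-binding protein that can trigger death of effector T cells, and Penk encodes the precursor of the enkephalin opioid peptides. Foxp3 is the factor that defines Treg, and BATF belongs to the AP-1 family and binds DNA with JUN proteins and, on composite sites, with IRF4.

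All libraries were poly(A) RNA-seq of cells sorted without culture from C57BL6/J spleen and lymph nodes, and each of the 13 groups has 2. BATFKO Treg were CD4+hCD2+ cells of Foxp3-IRES-hCD2.Batf-/- mice, in which every cell lacks Batf, and their WT Treg and Tconv were the CD4+hCD2+ and CD4+hCD2- cells of Foxp3-IRES-hCD2 mice. BATFcKO Treg YFP were CD4+YFP+hCD2- cells of Batfflox/flox mice with 1 Foxp3-IRES-YFPCre and 1 Foxp3-IRES-hCD2 allele, where Cre is made only in cells that use the tagged Foxp3 allele. WT Treg YFP came through the same gate from Foxp3-IRES-YFPCre/Foxp3-IRES-hCD2 mice. Foxp3R397W Treg (Foxp3R397W-IRES-hCD2/Foxp3-IRES-GFP, a missense mutation of the domain that binds DNA) and Foxp3KO Treg (Foxp3fs101-IRES-hCD2/Foxp3-IRES-GFP, a frameshift) were CD4+hCD2+GFP- cells. Each had WT controls of genotype Foxp3WT-IRES-hCD2/Foxp3-IRES-GFP through that gate. Foxp3 is X-linked, so a mouse with 2 tagged alleles also holds Treg that use the other, intact allele. From Foxp3-IRES-hCD2 mice came effector Treg (eTreg, CD4+hCD2+CCR7loCD62Llo), central Treg (cTreg, CD4+hCD2+CCR7hiCD62LhiCD44lo), and the hCD2- cells of the matching gates, Teff and Tnaive. The labels give no ages and do not say which libraries share an animal. For Tconv the title and the cell type entry disagree, and the title was followed.

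Promoter windows of 300 bases, from 250 bases before to 50 bases after the start site, are printed for the 3 tested genes whose windows were at hand. BATF and Foxp3, whose loss or mutation is compared below, are DNA-binding proteins. They are RefSeq sequences on mm10, all on the + strand: Fgl2 at chr5:21372423-21372722, Areg at chr5:91139349-91139648 and Ebi3 at chr17:55952373-55952672. Capitals mark a match to one of 5 motifs searched on both strands.
Fgl2: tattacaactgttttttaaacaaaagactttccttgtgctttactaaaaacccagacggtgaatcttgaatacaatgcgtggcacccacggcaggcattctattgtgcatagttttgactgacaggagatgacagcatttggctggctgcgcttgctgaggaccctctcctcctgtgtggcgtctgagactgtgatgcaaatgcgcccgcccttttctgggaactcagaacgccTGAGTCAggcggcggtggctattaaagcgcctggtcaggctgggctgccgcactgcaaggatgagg
Areg: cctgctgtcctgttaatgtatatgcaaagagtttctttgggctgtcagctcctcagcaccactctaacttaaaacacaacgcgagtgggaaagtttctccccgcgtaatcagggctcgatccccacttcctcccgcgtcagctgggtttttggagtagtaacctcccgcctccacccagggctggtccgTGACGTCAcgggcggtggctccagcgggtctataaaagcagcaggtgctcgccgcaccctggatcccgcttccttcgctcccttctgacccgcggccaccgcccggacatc
Ebi3: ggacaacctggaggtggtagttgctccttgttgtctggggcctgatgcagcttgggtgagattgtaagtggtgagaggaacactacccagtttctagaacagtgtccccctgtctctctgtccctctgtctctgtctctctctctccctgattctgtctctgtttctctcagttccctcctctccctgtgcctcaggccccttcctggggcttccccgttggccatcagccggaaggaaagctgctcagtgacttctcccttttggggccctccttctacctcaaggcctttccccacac
The Fgl2 window holds 1 AP-1 site (TGANTCA, starting at base -16), a motif that 7.81% of 32851 such windows hold. The Areg window holds 1 cyclic AMP response element (TGACGTCA, starting at base -61), held by 1.79% of windows and known from other genes as a CREB and AP-1 family site. The Ebi3 window holds no match, nor do the windows of the 2 annotated Il12a starts. The other motifs are a forkhead site (TGTTTAC) a composite element of AP-1 with IRF factors and that element with its parts in swapped order. They match none of these windows and 3.65%, 0.119% and 0.149% of all windows. Both composite forms hold a gap of unspecified bases between the parts, and forms without that gap were not searched. A match describes letters only, and no binding was measured here.

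Library totals ran from 5615929 to 34613707 counts, and values below are CPM (reads relative to library size) after TMM scaling. Cd4 was at 685 to 1523 CPM in all 26 libraries. Foxp3 was at 109 to 809 CPM in the 20 Treg libraries and at 0.274 to 4.07 CPM in Tconv, Teff and Tnaive. Batf stood at 7.02 ± 0.273 CPM in BATFKO Treg against 64.5 ± 26.1 in WT Treg, and at 17.7 ± 2.52 in BATFcKO Treg YFP against 63.1 ± 6.64 in WT Treg YFP (SD, n = 2 each). Foxp3 transcript was at 111 ± 3.05 CPM in Foxp3KO Treg against 337 ± 16.1 in their controls (SD, n = 2 each). The Teff gate also carried transcripts of other cells. The summed level of 15 plasmacytoid and myeloid markers was 743 and 328 CPM in Teff against 86.2 and 79.7 CPM in Tnaive, with Siglech, which defines plasmacytoid dendritic cells, at 92.3 and 20.0 CPM in Teff against 0.102 and 0 CPM in Tnaive. In sorted bulk cells a smaller share of producing cells and less RNA per producing cell cannot be told apart, which holds for every comparison below.

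Across the 13 groups, eTreg carried the highest mean level of Ebi3, Fgl2 and Penk, BATFKO Treg that of Il10, WT Treg that of Areg and Teff that of Lgals1. Tnaive were at 0 reads for Il10, Ebi3, Fgl2 and Areg in both libraries, and 0 reads allow a level of up to 0.151 CPM (3 reads over the group, counting error only). Per kilobase of exon, Lgals1 had the highest level of the 7 in 13 of 13 groups, between 45.9 CPM per kb in Tconv and 240 CPM per kb in Teff. Penk followed in eTreg at 99.5 CPM per kb, where Ebi3 stood at 29.6, Fgl2 at 28.1, Il10 at 15.5 and Areg at 5.76 CPM per kb.

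**Figure D1:**
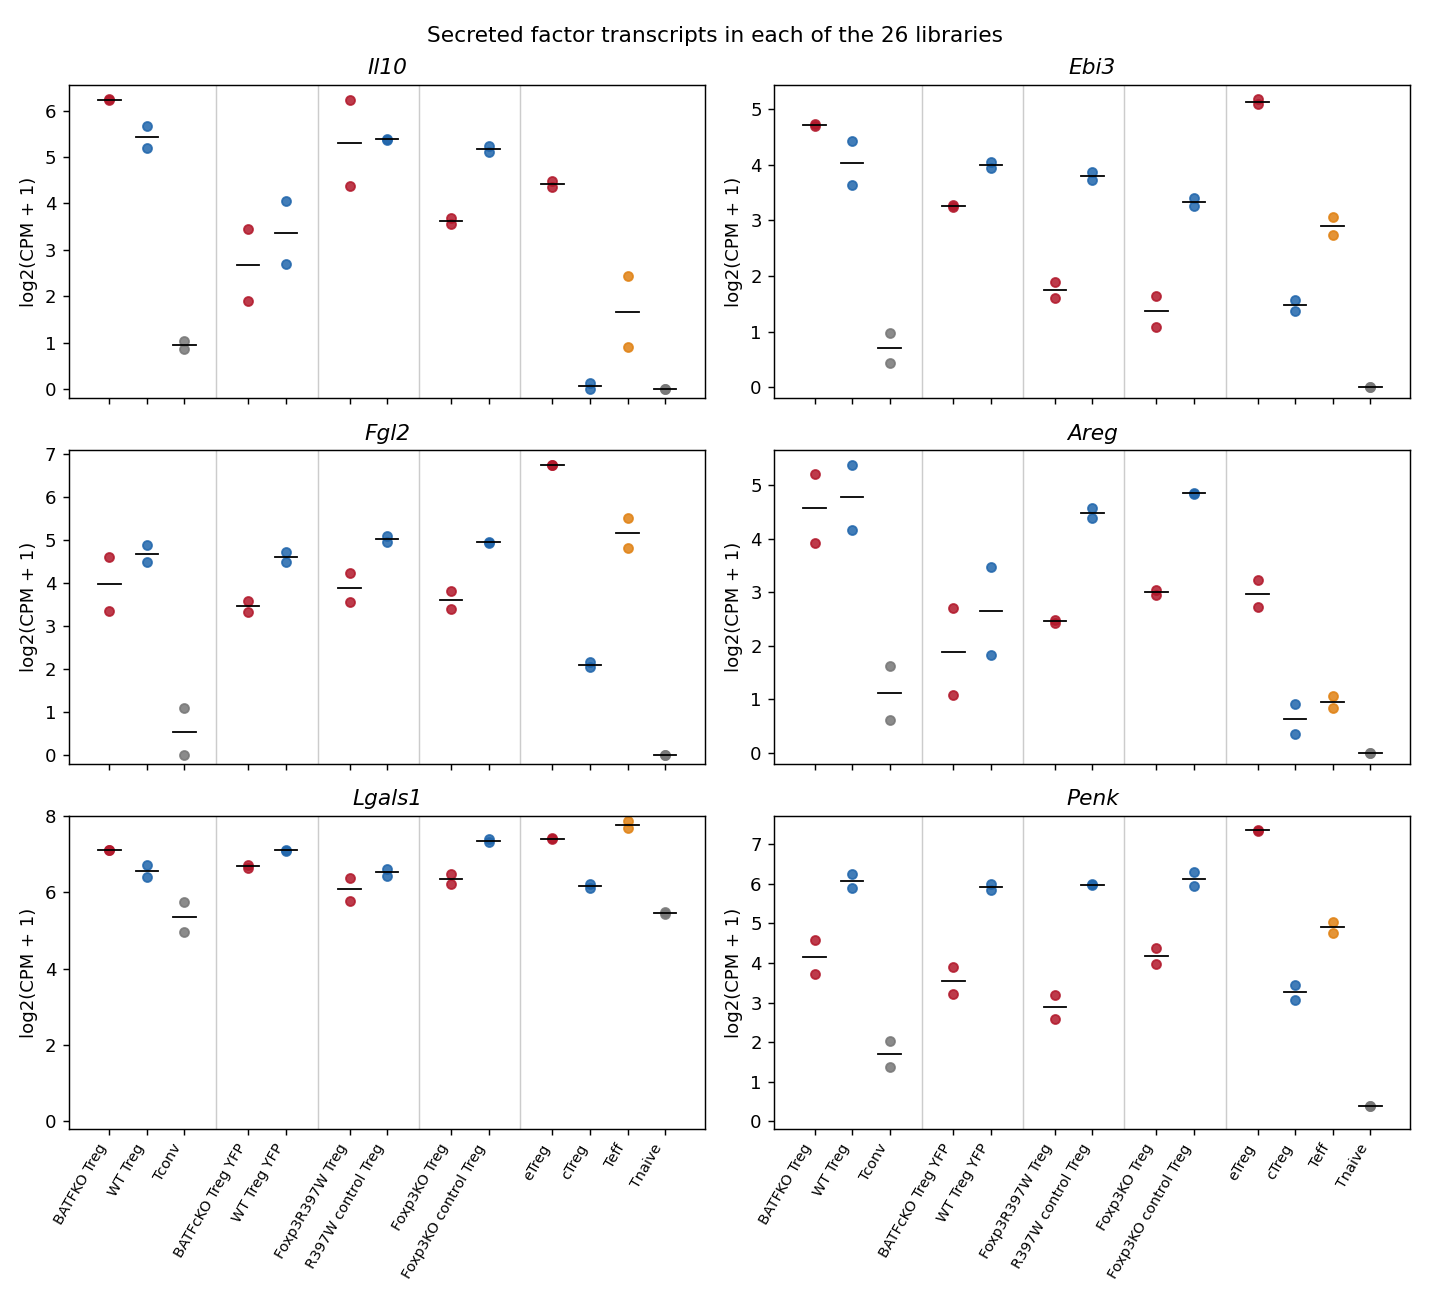
Each point is the level of 1 gene in 1 library, as log2(CPM + 1) on the vertical axis, for 6 secreted factor genes in 13 groups of 2 libraries. Horizontal bars are means of the log values, red marks the mutants and eTreg, blue their controls and cTreg, orange Teff and grey Tconv and Tnaive, vertical lines part the sort sets, and Penk lies below its controls in each of the 4 mutant groups.

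The order of the groups differed from gene to gene. For Il10 (chromosome 1, 131019845 to 131024974, + strand), BATFKO Treg stood first at 74.4 ± 0.616 CPM (SD, n = 2), and neighbours down to R397W control Treg at 40.8 ± 0.452 CPM overlapped in their libraries. WT Treg YFP were lower, at 10.5 ± 7.17 CPM, than the other WT Treg groups, which lay between 35.2 and 42.6 CPM. For Penk (chromosome 4, 4133531 to 4138819, - strand), eTreg at 163 ± 2.58 CPM stood clear of all other groups, followed by the 4 WT Treg groups with means of 59.6 to 69.1 CPM. The libraries of those 4 groups overlapped, and Teff at 29.0 ± 3.80 CPM came next.

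For Ebi3 (chromosome 17, 55952640 to 55957022, + strand), eTreg at 34.2 ± 1.58 CPM and BATFKO Treg at 25.3 ± 0.470 CPM stood first, with no overlap between them. A predicted antisense gene, Gm16712, overlaps Ebi3 and moved with it, at 10.9 and 9.12 CPM in eTreg against 0.376 and 0.0991 CPM in cTreg. How strand was treated in counting is not stated in sources used here, so reads of this pair cannot be told apart. Fgl2 (chromosome 5, 21372642 to 21378374, + strand) had 106 CPM in both eTreg libraries, against 35.9 ± 12.4 CPM in Teff, the next group (SD, n = 2). Areg (chromosome 5, 91139599 to 91148432, + strand) had its highest means in WT Treg, Foxp3KO control Treg, BATFKO Treg and R397W control Treg, between 21.4 and 28.9 CPM, with overlapping neighbours. Lgals1 (chromosome 15, 78926725 to 78930465, + strand) had the smallest spread among the 6 tested genes on a ratio scale, with 217 ± 19.6 CPM in Teff, the highest group, against 41.5 ± 16.1 CPM in Tconv, the lowest.

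Of the 2 chains of IL-35, reads for p35 were rare. Il12a (chromosome 3, 68690644 to 68698547, + strand) had 17 reads over all 26 libraries, 10 of them in the 20 Treg libraries. It had a read in 12 of 26 libraries, and no library held more than 4. Ebi3 had 2538 reads over the same libraries and 2393 in the Treg libraries, which is 10.2 CPM against 0.0424 CPM for Il12a when Treg reads are summed. In eTreg, where Ebi3 had its highest mean, Il12a had 0 reads in both libraries. The chains that EBI3 and p35 pair with in IL-27 and IL-12 were as rare: Il27 had 11 reads, Il12b 16 and Il23a, the partner chain of IL-23, 31 reads over all libraries. Protein was not measured.

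Effector differentiation of Treg was measured by setting eTreg against cTreg. All 6 tested secreted factor genes were higher in eTreg, where 31.1% of all tested genes were called in either direction and 18.8% were called higher (edgeR quasi-likelihood test, adjusted p below 0.05). Il10 had 19.4 and 21.2 CPM in eTreg, against 0.0940 and 0 CPM in cTreg, a count ratio of 421 with a 95% exact interval of 75.2 to 16667 that covers counting error only. Penk had 164 and 161 CPM in eTreg, against 7.43 and 9.81 CPM in cTreg (log2 change 4.24 ± 0.28, edgeR adjusted p = 1.9e-09). The libraries of the 6 tested members did not overlap between these groups. The share of all tested genes without such overlap was not counted, here or in the comparisons below.

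Fgl2 had 106 CPM in both eTreg libraries, against 3.10 and 3.47 CPM in cTreg (log2 change 5.01 ± 0.40, edgeR adjusted p = 3.2e-08). Ebi3 had 35.3 and 33.0 CPM in eTreg, against 1.97 and 1.59 CPM in cTreg (4.25 ± 0.31, edgeR adjusted p = 1.2e-08). Both genes were thus detected in resting Treg at low levels, unlike Il10, which had 1 read there in all. Areg, the repair factor, was low in both gates, with 5.64 and 8.35 CPM in eTreg against 0.282 and 0.892 CPM in cTreg (3.57 ± 0.84, edgeR adjusted p = 0.0031). Lgals1 had 168 and 169 CPM in eTreg, against 74.0 and 68.8 CPM in cTreg (1.24 ± 0.19, edgeR adjusted p = 5.1e-05). The median log2 change of the 6 genes was 4.24, against 0.01 over all tested genes.

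Marker lists of other cells were followed in this comparison, where 18.8% of all tested genes were called higher and 31.1% in either direction. The plasmacytoid and myeloid sum was 225 and 255 CPM in eTreg against 119 and 116 CPM in cTreg, with 3 of 15 called higher, near the share of all genes. The B and plasma cell sum was 208 and 207 CPM in eTreg against 106 and 101 CPM in cTreg, with 3 of 7 tested called higher and 1 lower. Markers of NK, CD8 and innate lymphoid cells summed to 395 and 375 CPM in eTreg against 156 and 158 CPM in cTreg, with 4 of 9 tested higher and 2 lower. Much of that sum was Gata3, a gene also listed below as an IL-10 regulator, at 262 and 251 CPM in eTreg against 137 and 136 CPM in cTreg. Stromal markers summed to 118 and 113 CPM in eTreg against 273 and 281 CPM in cTreg, where 5 and 6 of the 10 genes were at 0 reads. Of 8 stromal markers tested, however, 4 were called higher in eTreg and 1 lower. Siglech and Ncr1, an NK cell receptor, were at 0 reads in all 4 libraries, and the part of other cells was otherwise not tested.

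The same step in conventional cells, Teff against Tnaive, called 5 of the 6 higher, where 35.3% of tested genes were called and 21.2% higher. Because Tnaive held 0 reads, folds are lower bounds against 3 reads over the group. Fgl2 had 44.7 and 27.2 CPM in Teff against 0 in Tnaive, at least 235-fold higher (edgeR adjusted p = 2.6e-08), and Ebi3 had 7.33 and 5.66 CPM, at least 42.7-fold higher (edgeR adjusted p = 1.3e-07). Penk had 26.3 and 31.7 CPM in Teff against 0.306 and 0.300 CPM in Tnaive (log2 change 6.53 ± 0.47, edgeR adjusted p = 3e-09). These levels moved with the plasmacytoid and myeloid markers given above, 14 of 15 of which were called higher in Teff, and the part of other cells in the rise was not tested. Fgl2, Ebi3 and Lgals1 were higher in the library Teff 1, which had the higher marker sum, and Penk and Il10 in Teff 2.

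Il10 was at 0.879 and 4.38 CPM in Teff, at least 17.8-fold above Tnaive (edgeR adjusted p = 0.017). That call was lost without the expression filter (edgeR adjusted p = 0.072) and without Teff 2, Tnaive 1 or Tnaive 2 (0.077 to 0.20). Areg, at 0.782 and 1.09 CPM in Teff against 0 in Tnaive, was not called (edgeR adjusted p = 0.083) but was by DESeq2 (adjusted p = 0.0027). Lgals1 had 231 and 203 CPM in Teff against 44.1 and 41.9 CPM in Tnaive (2.34 ± 0.20, edgeR adjusted p = 2.7e-08).

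Lgals1 was the 1 member whose step differed in size between the lineages by the test of that difference, which called 5.42% of all genes. Its eTreg over cTreg change was smaller than its Teff over Tnaive change by a log2 difference of -1.09 ± 0.27 (edgeR adjusted p = 0.020). That call was lost in 7 of 8 fits that left out 1 library, with edgeR adjusted p between 0.050 and 0.091. For Penk (-2.29 ± 0.71, edgeR adjusted p = 0.073) the difference was not called here. It was called by DESeq2 (adjusted p = 0.017) and by edgeR on the libraries of the comparison alone (adjusted p = 0.0036). For Ebi3 (edgeR adjusted p = 0.081), Fgl2 (0.061, and 0.0029 by DESeq2), Il10 (1.0) and Areg (0.94) it rests on Tnaive at 0 reads. The Ebi3 difference was called without the expression filter (edgeR adjusted p = 0.034) and on those libraries alone (0.021).

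Treg identity was compared with conventional cells in 3 ways. In eTreg against Teff, 15.5% of tested genes were called, 8.21% higher, and 5 of the 6 members were higher. Penk had 164 and 161 CPM in eTreg against 26.3 and 31.7 CPM in Teff (2.49 ± 0.25, edgeR adjusted p = 7.2e-07). Ebi3 was 2.40 ± 0.26 higher (edgeR adjusted p = 3e-06) and Fgl2 1.57 ± 0.31 (edgeR adjusted p = 0.0015). Lgals1, at 168 and 169 CPM in eTreg against 231 and 203 CPM in Teff, was not called (-0.36 ± 0.19, edgeR adjusted p = 0.25), but was called lower when only these 4 libraries were fitted (edgeR adjusted p = 0.012). Il10 (2.92 ± 0.63, edgeR adjusted p = 0.0032) lost its call without Teff 1 (edgeR adjusted p = 0.062), the library that was low in Il10, and when only these 4 libraries were fitted (0.056). Areg (2.88 ± 0.76, edgeR adjusted p = 0.014) lost its call without Teff 1, Teff 2 or eTreg 2 (0.069 to 0.12) and without the expression filter (0.071). Of the 15 plasmacytoid and myeloid markers, 10 were lower in eTreg than in Teff.

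In cTreg against Tnaive, 12.2% of tested genes were called, 7.91% higher, and 4 of the 6 members were higher. Fgl2 was at least 21.7-fold higher (edgeR adjusted p = 0.0011) and Ebi3 at least 11.8-fold (edgeR adjusted p = 0.00017), both against 0 reads in Tnaive. Penk had 7.43 and 9.81 CPM in cTreg against 0.306 and 0.300 CPM in Tnaive (4.78 ± 0.55, edgeR adjusted p = 3.5e-06). Lgals1, at 74.0 and 68.8 CPM in cTreg against 44.1 and 41.9 CPM in Tnaive, was higher by 0.73 ± 0.20 (edgeR adjusted p = 0.017), a call lost whichever of the 4 libraries was left out (0.057 to 0.13). Il10, with 1 read in cTreg and 0 in Tnaive, and Areg (edgeR adjusted p = 0.33) were not called. DESeq2 called Areg higher (adjusted p = 0.026).

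All 6 were higher in WT Treg against Tconv, where 18.7% of tested genes were called and 12.1% higher. Il10 had 49.6 and 35.5 CPM in WT Treg against 1.06 and 0.803 CPM in Tconv (5.51 ± 0.83, edgeR adjusted p = 8.9e-05). Penk had 58.3 and 74.5 CPM in WT Treg against 1.59 and 3.05 CPM in Tconv (4.81 ± 0.36, edgeR adjusted p = 1.8e-08). Log2 changes were 5.39 for Fgl2, 4.54 for Ebi3, 4.41 for Areg and 1.18 for Lgals1. For Lgals1, the change was not called when only these 4 libraries were fitted (edgeR adjusted p = 0.11).

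BATF dependence was measured first in germline BATFKO Treg. Penk was lower, and it was the 1 member called of 6, where 2.69% of tested genes were called and 1.64% were lower. Penk had 22.9 and 12.2 CPM in BATFKO Treg against 58.3 and 74.5 CPM in WT Treg, with no overlap (log2 change -1.90 ± 0.26, edgeR adjusted p = 0.00029). Fitted on these 4 libraries alone, the same change was not called (edgeR adjusted p = 0.25), a fit in which edgeR called 0 of 11109 genes, with 458 at an unadjusted p below 0.05. Libraries within a group of this set differed more than in other sets, by a chi-square of 21.7 to 29.9 per degree of freedom against 3.0 to 7.79 elsewhere.

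The suppressive cytokine genes lay higher in BATFKO Treg, without a call. Il10 had 74.8 and 74.0 CPM in BATFKO Treg against 49.6 and 35.5 CPM in WT Treg, and Ebi3 25 and 25.7 CPM against 11.4 and 20.6 CPM in WT Treg. Neither gene's libraries overlapped between the groups, but neither change was called, at 0.80 ± 0.48 for Il10 (edgeR adjusted p = 0.59) and 0.67 ± 0.25 for Ebi3 (edgeR adjusted p = 0.23). How many of all tested genes also lacked overlap was not counted. Without WT Treg 2, the Ebi3 change was 1.15. Lgals1 had 137 CPM in both BATFKO Treg libraries against 83.9 and 104 CPM in WT Treg (0.55 ± 0.19, edgeR adjusted p = 0.18). Fgl2, at 23.3 and 9.16 CPM in BATFKO Treg against 28.4 and 21.5 CPM in WT Treg, overlapped between groups (-0.60 ± 0.35, edgeR adjusted p = 0.59). Areg overlapped as well, at 14.2 and 36.3 CPM in BATFKO Treg against 17 and 40.8 CPM in WT Treg (-0.20 ± 0.50, edgeR adjusted p = 0.99). Stromal markers moved with this comparison, with 5 of 8 tested called higher and a summed level of 298 and 335 CPM in BATFKO Treg against 204 and 198 CPM in WT Treg. That sum was also 275 and 284 CPM in Tnaive, with 6 and 7 of the 10 genes at 0 reads there. Few genes thus carry the sum, which by itself does not measure stromal cells. Their part in these values was not tested.

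Penk was again lower where Foxp3-driven Cre had deleted Batf. It had 8.27 and 13.8 CPM in BATFcKO Treg YFP against 56.8 and 62.4 CPM in WT Treg YFP (log2 change -2.42 ± 0.28, edgeR adjusted p = 5.7e-05). Penk was the 1 member called, where 2.04% of tested genes were called and 1.72% lower, and it stayed called whichever library was left out. Fgl2 had 11 and 9.0 CPM in BATFcKO Treg YFP against 21.6 and 25.4 CPM in WT Treg YFP, with no overlap (-1.23 ± 0.38, edgeR adjusted p = 0.14). DESeq2 called it (adjusted p = 0.036), as did edgeR on the 4 libraries alone (adjusted p = 0.0022).

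The other members lay lower without a call. Ebi3 had 8.44 and 8.68 CPM in BATFcKO Treg YFP against 14.4 and 15.5 CPM in WT Treg YFP (-0.80 ± 0.28, edgeR adjusted p = 0.22), and Lgals1 105 and 98.1 CPM against 135 and 137 CPM in WT Treg YFP (-0.42 ± 0.19, edgeR adjusted p = 0.43). Neither gene's libraries overlapped between the groups, and how many of all tested genes also lacked overlap was not counted. Il10 had 9.99 and 2.73 CPM in BATFcKO Treg YFP against 15.6 and 5.43 CPM in WT Treg YFP (-0.76 ± 0.67, edgeR adjusted p = 0.81), and Areg 5.51 and 1.13 CPM against 10.1 and 2.56 CPM in WT Treg YFP (-0.98 ± 0.72, edgeR adjusted p = 0.74). Both overlapped between the groups, and in both the library numbered 1 was the higher within each group. Without WT Treg YFP 1, the log2 change became 0.21 for Il10 and 0.35 for Areg. Markers of NK, CD8 and innate lymphoid cells summed to 230 and 169 CPM in BATFcKO Treg YFP against 295 and 256 CPM in WT Treg YFP, with 1 of 9 tested called lower. Much of that sum was Gata3, at 204 and 145 CPM in BATFcKO Treg YFP against 241 and 191 CPM in WT Treg YFP. Stromal markers summed to 282.2 and 262.5 CPM in BATFcKO Treg YFP against 205.1 and 212.6 CPM in WT Treg YFP, with 1 of 8 tested called higher. The part of these cells was not tested.

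Ebi3, Il10 and Lgals1 were higher in BATFKO Treg and lower in BATFcKO Treg YFP, each without a call, and Il10 was lower only with WT Treg YFP 1 kept. The test of the difference between the 2 BATF comparisons called none of these, at 1.47 ± 0.38 for Ebi3 (edgeR adjusted p = 0.42), 1.56 ± 0.82 for Il10 (0.99) and 0.97 ± 0.27 for Lgals1 (0.44). By that test edgeR called 0 of 12227 genes, with 633 at an unadjusted p below 0.05, and DESeq2 called 10. For Penk the difference was 0.52, with a 95% interval of -0.31 to 1.36.

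**Figure D2:**
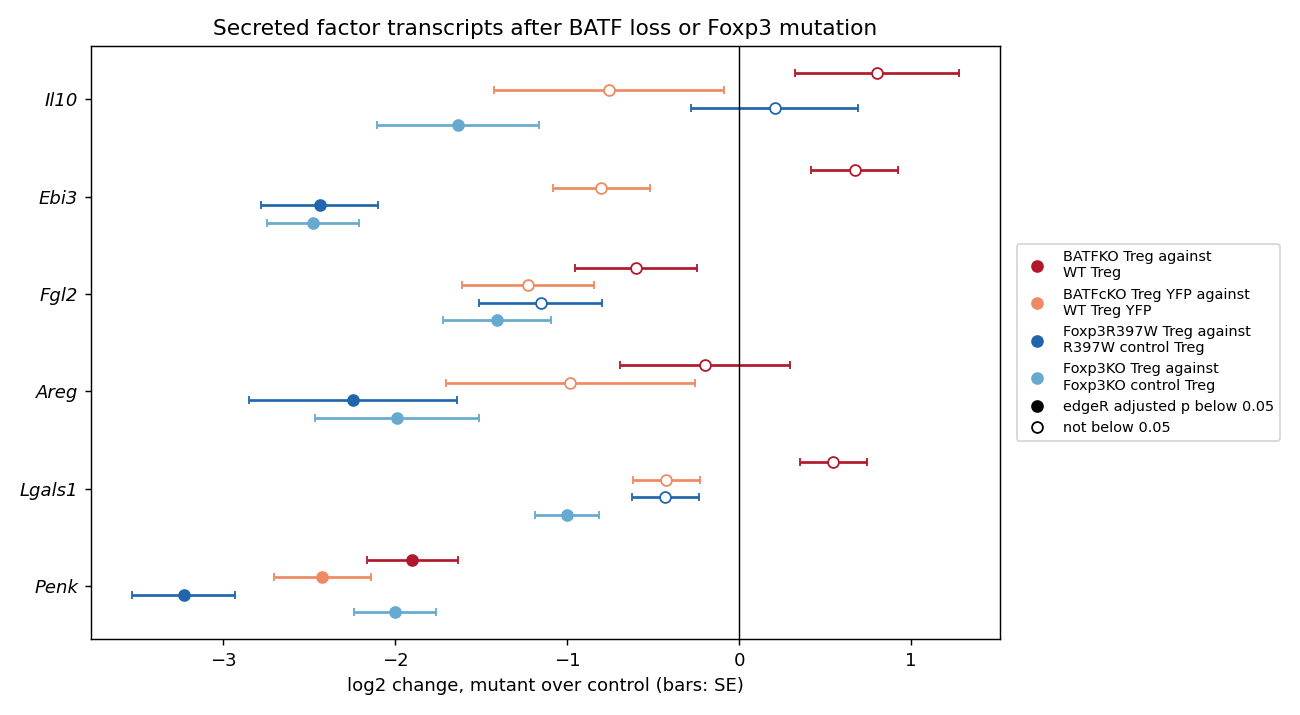
Log2 change of each of 6 secreted factor genes on the horizontal axis, mutant over its own control, with bars of 1 SE, in the 4 mutant comparisons of 2 libraries a group. Filled points have an edgeR adjusted p below 0.05. Penk is filled in all 4 comparisons, Ebi3 and Areg in both Foxp3 mutants, and Il10, Fgl2 and Lgals1 in Foxp3KO.

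The missense mutant Foxp3R397W had 3 of the 6 members lower, where 6.13% of tested genes were called and 3.94% lower. Penk had 4.95 and 8.20 CPM in Foxp3R397W Treg against 61.3 and 63.3 CPM in R397W control Treg (log2 change -3.23 ± 0.30, edgeR adjusted p = 3.2e-06). Ebi3 had 2.72 and 2.05 CPM in Foxp3R397W Treg against 12.2 and 13.7 CPM in control (-2.44 ± 0.34, edgeR adjusted p = 0.00022). Areg had 4.63 and 4.39 CPM in Foxp3R397W Treg against 22.9 and 19.9 CPM in control (-2.25 ± 0.60, edgeR adjusted p = 0.033). The groups did not overlap for any of these 3 genes, and the share of all tested genes without overlap was not counted. The Areg call was lost without the expression filter (edgeR adjusted p = 0.14), by DESeq2 (0.058) and whichever library was left out (0.10 to 0.22).

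Il10 did not follow them. It had 74.6 and 19.9 CPM in Foxp3R397W Treg against 40.5 and 41.1 CPM in control, so that 1 mutant library lay above both controls and the other below (0.21 ± 0.49, edgeR adjusted p = 0.93). Without Foxp3R397W 1 its change was -1.0, also uncalled. Fgl2 had 17.7 and 10.7 CPM in Foxp3R397W Treg against 29.9 and 33.1 CPM in control, with no overlap (-1.15 ± 0.36, edgeR adjusted p = 0.071), and was called by DESeq2 (adjusted p = 0.022) and by edgeR on the 4 libraries alone (adjusted p = 0.00017). Lgals1 had 82.4 and 53.6 CPM in Foxp3R397W Treg against 97.6 and 85.3 CPM in control (-0.43 ± 0.20, edgeR adjusted p = 0.28). The plasmacytoid and myeloid marker sum was 88.6 and 91.2 CPM in Foxp3R397W Treg against 159 and 152 CPM in control, with 1 of 15 called lower. B and plasma cell markers had 3 of 7 tested lower, and those of NK, CD8 and innate lymphoid cells 2 of 9 lower and 1 higher. The 1 mast cell and basophil marker tested was called higher, as were 2 of 8 stromal markers. The part of these cells in the values was not tested.

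Foxp3KO Treg had all 6 members lower, where 9% of tested genes were called and 6.39% lower. Ebi3 had 2.13 and 1.12 CPM in Foxp3KO Treg against 8.54 and 9.65 CPM in Foxp3KO control Treg (log2 change -2.48 ± 0.27, edgeR adjusted p = 1.3e-05). Penk had 19.8 and 14.8 CPM in Foxp3KO Treg against 60.4 and 77.9 CPM in control (-2.00 ± 0.24, edgeR adjusted p = 2.3e-05). These 2 stayed called whichever library was left out. Lgals1 had 88.6 and 73.6 CPM in Foxp3KO Treg against 157 and 167 CPM in control (-1.0 ± 0.19, edgeR adjusted p = 0.0016), a call lost without Foxp3KO 2 (edgeR adjusted p = 0.054).

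Fgl2 had 13 and 9.44 CPM in Foxp3KO Treg against 29.4 and 30.2 CPM in control (-1.41 ± 0.31, edgeR adjusted p = 0.0069), lost without Foxp3KO 2 (0.14) or control 6 (0.059). Areg had 7.22 and 6.78 CPM in Foxp3KO Treg against 27.7 and 28.0 CPM in control (-1.99 ± 0.48, edgeR adjusted p = 0.012). Il10 had 10.8 and 11.8 CPM in Foxp3KO Treg against 37.0 and 33.5 CPM in control (-1.64 ± 0.47, edgeR adjusted p = 0.036). The libraries of the 6 tested members did not overlap between the groups. How many of all tested genes also lacked overlap was not counted. The Areg and Il10 calls were both lost without the expression filter (edgeR adjusted p = 0.058 and 0.15), by DESeq2 (0.074 and 0.17) and whichever library was left out. Over such fits, 2 to 4 of the 6 members were called. The plasmacytoid and myeloid marker sum was 131 and 121 CPM in Foxp3KO Treg against 173 and 196 CPM in control, with 1 of 15 called lower. That of NK, CD8 and innate lymphoid cells was 213 and 215 CPM in Foxp3KO Treg against 303 and 289 CPM in control, with 3 of 9 tested lower and 1 higher. Gata3 of that list was at 143 and 152 CPM in Foxp3KO Treg against 238 and 227 CPM in control, so most of that fall was 1 gene. The part of either set of cells was not tested.

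The mutants differed from each other for 1 member. The Ebi3 change was -0.80 in BATFcKO Treg YFP, where it was not called, and -2.48 in Foxp3KO Treg, a log2 difference of 1.68 ± 0.39 (edgeR adjusted p = 0.046) in a test that called 1.14% of all genes. That call was lost in 7 of 8 fits that left out 1 library (edgeR adjusted p between 0.086 and 0.24). For Penk the difference was not called (-0.42, 95% interval -1.22 to 0.37, edgeR adjusted p = 0.89). Between Foxp3R397W and Foxp3KO, Penk differed by -1.23 with a 95% interval of -2.06 to -0.40, but edgeR adjusted p was 1.0, and that test called 2 of all genes, or 0.0164%. Ebi3 differed there by 0.04 (-0.88 to 0.96) and Il10 by 1.84 (0.38 to 3.30, edgeR adjusted p = 1.0). Medians over the 6 tested members were 0.17 in BATFKO Treg, -0.89 in BATFcKO Treg YFP, -1.70 in Foxp3R397W Treg and -1.81 in Foxp3KO Treg, against medians over all tested genes between -0.02 and 0.01.

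The WT Treg gates do not part eTreg from cTreg, and the sorted gates were set beside the 4 WT Treg groups without a test, since the sets differ in depth. Ebi3, Fgl2, Lgals1 and Penk lay between the gates in all 4 groups. Penk had means of 59.6 to 69.1 CPM in WT Treg groups, between 163 CPM in eTreg and 8.62 CPM in cTreg. Il10 and Areg did not lie between them. Areg averaged 28.9 CPM in WT Treg, 21.4 in R397W control Treg and 27.9 in Foxp3KO control Treg, against 7.0 CPM in eTreg and 0.587 CPM in cTreg. Il10 averaged 42.6, 40.8 and 35.2 CPM in those groups, against 20.3 CPM in eTreg and 0.0470 CPM in cTreg. WT Treg YFP, at 6.35 CPM of Areg and 10.5 CPM of Il10, lay between the gates. The immediate early gene Jun, which encodes an AP-1 partner of BATF and was chosen after its values were seen, was at 364 to 2295 CPM in the 8 WT Treg libraries and at 62.8 to 92.9 CPM in the 4 sorted Treg libraries.

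**Figure D3:**
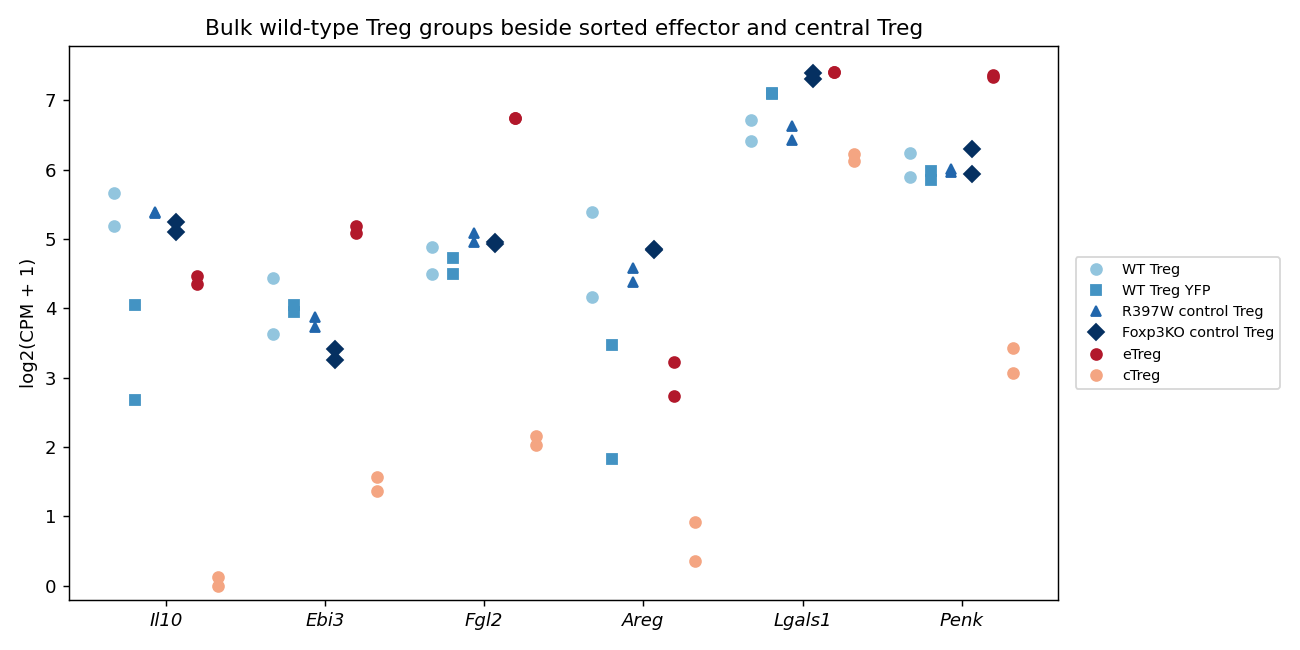
Level of 6 secreted factor genes, as log2(CPM + 1) on the vertical axis, in each library of 4 WT Treg groups and of sorted eTreg and cTreg. Il10 and Areg lie above eTreg in WT Treg, R397W control Treg and Foxp3KO control Treg, whereas Ebi3, Fgl2, Lgals1 and Penk lie between eTreg and cTreg.

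Areg also differed between the libraries of a group, in the same order as Jun. In the germline set, the libraries numbered 2 had more Areg than those numbered 1 in BATFKO Treg, WT Treg and Tconv, and in the YFP set those numbered 1 had more. Jun did the same in all 5 groups: it was at 769 and 1942 CPM in BATFKO Treg 1 and 2 and at 1179 and 2295 CPM in WT Treg 1 and 2. In the YFP set, Jun was at 1327 and 688 CPM in BATFcKO Treg YFP 1 and 2 and at 821 and 364 CPM in WT Treg YFP 1 and 2. Fos, another immediate early gene chosen after its values were seen, had the same order in 4 of the 5 groups. It was at 729 and 694 CPM in BATFKO Treg 1 and 2, the group with the other order, and at 928 and 1033 CPM in WT Treg 1 and 2. Penk had the order of Areg in WT Treg (58.3 and 74.5 CPM) and Tconv (1.59 and 3.05 CPM) and the other order in BATFKO Treg and both YFP groups. Il10 ran against Jun in the germline set, with 74.8 and 74.0 CPM in BATFKO Treg 1 and 2, 49.6 and 35.5 CPM in WT Treg and 1.06 and 0.803 CPM in Tconv. Same-numbered germline libraries also deviated together over all tested genes (correlations of 0.495 to 0.571), so the groups of a set are not separate observations. The part of Jun in the Areg values was not tested.

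**Figure D4:**
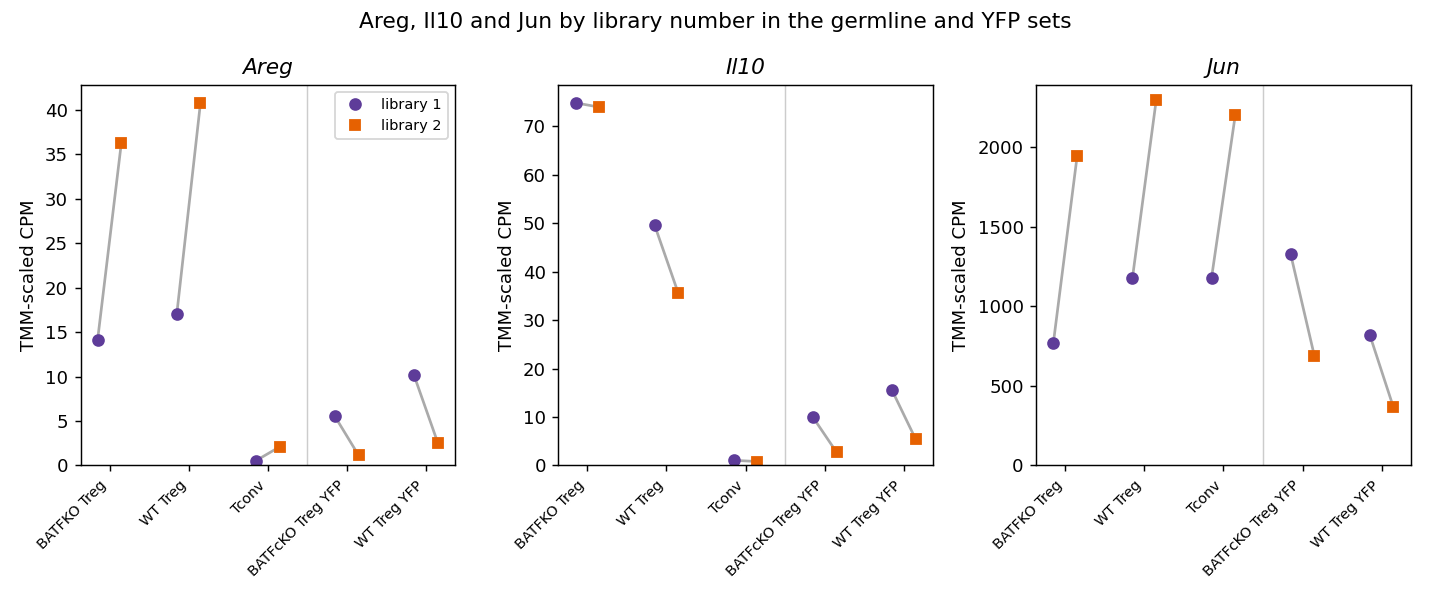
CPM of Areg, Il10 and Jun on the vertical axes in the libraries numbered 1 and 2 of 3 germline and 2 YFP groups, with lines joining the libraries of a group. Areg and Jun are higher in the libraries numbered 2 of the germline groups and in those numbered 1 of the YFP groups, whereas Il10 is higher in those numbered 1 of all groups shown.

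Genes around each factor were followed as lists, whose counts stand against 2.69% of all tested genes called in BATFKO Treg, 2.04% in BATFcKO Treg YFP, 6.13% in Foxp3R397W Treg, 9% in Foxp3KO Treg and 31.1% in eTreg against cTreg. Of 12 regulators and receptor chains of IL-10, 1 was higher and 3 were lower in BATFKO Treg, among them Icos (-1.21 ± 0.16) and Prdm1, which encodes BLIMP-1 (-1.13 ± 0.27), while Irf4 rose (0.85 ± 0.12). The same list had 0 higher and 3 lower in BATFcKO Treg YFP, with Icos at -1.57, Ahr at -1.22 and Prdm1 at -1.57. It had 1 higher and 3 lower in Foxp3R397W Treg and 0 and 4 in Foxp3KO Treg, where the receptor chain Il10ra fell by 1.21 and 1.08 on the log2 scale. In eTreg against cTreg, 9 were higher and 1 lower, against 18.8% of all tested genes higher. Icos (3.27) and Maf (4.83), a factor that drives Il10, had the smallest p-values.

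Of 6 receptors for signals that induce Areg, 0 were higher in BATFKO Treg and 2 lower, both of them chains of the IL-18 receptor (Il18rap -2.07, Il18r1 -1.60), and BATFcKO Treg YFP had the same count (-3.75 and -1.39). Foxp3R397W Treg had 1 higher and 2 lower and Foxp3KO Treg 0 higher and 4 lower, and in both Il1rl1, the receptor of IL-33, was lower (-4.31 ± 0.49 and -3.20 ± 0.37). In eTreg, 5 of the 6 were higher than in cTreg. Of 6 tested EGF family ligands and sheddases, of 11 listed, 0 were called in the 4 mutants, which at the shares above says nothing particular about that family.

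Tigit, a receptor whose engagement on Treg induces FGL2, was lower in BATFKO Treg (-3.66 ± 0.51), BATFcKO Treg YFP (-4.83 ± 0.64) and Foxp3KO Treg (-2.20 ± 0.40), while in Foxp3R397W Treg the 1 gene called of 3 tested was Lag3 (1.81 ± 0.46). Of 5 other galectins tested, Lgals3 was lower in BATFcKO Treg YFP (-3.40 ± 0.55) and higher in eTreg than in cTreg (5.39 ± 0.54). Of 4 tested genes for opioid peptides, their processing and receptors, Cpe, which trims opioid precursors, was higher in Foxp3R397W Treg (2.80 ± 0.47) and Foxp3KO Treg (1.55 ± 0.40) and not called in the BATF mutants. Cpe and Penk thus moved in opposite directions in both Foxp3 mutants.

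Other secreted suppressive factors (9 tested) had 2 higher and 1 lower in BATFKO Treg, 0 called in BATFcKO Treg YFP, 1 and 2 in Foxp3R397W Treg and 1 and 0 in Foxp3KO Treg. Gzmb, which encodes granzyme B, was lower in BATFKO Treg (-1.97 ± 0.50) and Foxp3R397W Treg (-1.96 ± 0.55), and Tgfb3 was higher in BATFKO Treg (2.29 ± 0.39) and in both Foxp3 mutants (2.66 ± 0.49 in Foxp3R397W, 1.20 ± 0.29 in Foxp3KO). Other repair and growth factors (10 tested) had 3 higher in BATFKO Treg (Wnt10b, Lif and Pdgfb) and 1 lower in BATFcKO Treg YFP (Tnfsf11). They had 2 lower in Foxp3R397W Treg and 4 lower in Foxp3KO Treg, and Hgf, hepatocyte growth factor, was lower in both (-2.60 ± 0.52 and -2.59 ± 0.37).

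Across the 13 group means, each centred on its set, the 15 pairs of the 6 tested genes had Pearson correlations of 0.82 to 0.97. These are descriptions, since groups share libraries' depth and the eTreg and Treg contrasts. Among 10184 tested genes that reached 5 CPM, the genes most like Penk were Ddx43, Nrn1 and Kif13a (r = 0.986 each), and those most like Il10 were Dusp16, Fam83g and Il1r2 (0.977 to 0.984). Fcho2, Csf1 and Kdm2b were most like Ebi3, Smpdl3a, Cyfip1 and Rasgef1a most like Fgl2, Smim10l2a, Btbd16 and Lclat1 most like Areg, and Bak1, Ncapg and Fignl1 most like Lgals1. By Spearman correlation, only Ddx43 for Penk and Bak1 for Lgals1 remained among the first 3.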

How the data were processed

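Poly(A) RNA-seq was measured in 26 libraries, 2 for each of 13 groups. The authors deposited whole-number read counts per gene, per the file headers 1 column a library. Reads were aligned to mm10 with STAR 2.6.1c per the submitters' processing notes. The counting tool and how it treated strand are not stated in sources used here; for the libraries, either of 2 NEBNext kits is named per the labels. Of 2 deposited tables the larger was used, and a further 4 columns that match no label were not.

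Counts were tested in R 4.3.3 with edgeR 4.0.16 (expression filter, TMM scaling, robust quasi-likelihood fit of 13 group means to all 26 libraries, leaving 13 residual degrees of freedom), limma 3.58.1 supporting it and DESeq2 1.42.0 as an alternative. The filter kept 12227 of 24411 genes, which held at least 99.9% of each library's reads. P-values were adjusted by Benjamini-Hochberg over the tested genes, and genes with an adjusted p below 0.05 were called. Log2 changes carry an approximate SE, the absolute change divided by the root of its F statistic. Levels are TMM-scaled CPM. Against a group at 0 reads a fold is a lower bound at 3 counts over the group, and with 1 to 3 reads a count ratio has a 95% exact interval. These bounds cover counting error alone, since amplified reads are not independent molecules. P-values measure the spread between these libraries, which may be technical.

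The members, the lists and the tests were chosen with earlier results of these data known. The text names the 7 members, Foxp3 and Batf, up to 2 called genes a direction from each list and any list gene whose role a sentence is about, and the 3 genes most like each member among genes reaching 5 CPM. Gene spans and exon lengths are from GENCODE M21 on mm10, and promoter windows from RefSeq on GRCm38.p6, the same build. Scripts were tested on simulated data. Alternatives were DESeq2 size factors, no expression filter, DESeq2, the libraries of a comparison alone, a replicate block and leaving out each library.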

Additional observations from a re-analysis of the deposited data

Results flagged for a closer look

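The Ebi3 change differed between BATFcKO Treg YFP and Foxp3KO Treg, each against its own WT control, by a log2 difference of 1.68 ± 0.39 in a test of the difference itself (edgeR adjusted p = 0.046). Ebi3 lay lower in both libraries of both mutants, at 8.44 and 8.68 CPM in BATFcKO Treg YFP against 14.4 and 15.5 CPM in WT Treg YFP, and at 2.13 and 1.12 CPM in Foxp3KO Treg against 8.54 and 9.65 CPM in Foxp3KO control Treg. The adjusted p ran from 0.0017 to 0.24 over 13 alternatives.

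The Lgals1 change differed between the 2 lineages, being smaller in eTreg against cTreg (1.24 ± 0.19) than in Teff against Tnaive (2.34 ± 0.20), by a log2 difference of -1.09 ± 0.27 (edgeR adjusted p = 0.020, with a range of 2.8e-05 to 0.091 over 13 alternatives). Lgals1 was higher in both effector libraries of both lineages. Plasmacytoid and myeloid markers were also higher in Teff, and their part in this difference was not tested.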

How the results depend on the processing

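Of 776 values of members under alternatives, 702 kept their side of the threshold, 52 lost a call, 22 gained one and no called value turned round. Among the 702 are 20 uncalled values that changed sign. Of 78 group levels, 9 moved by more than 1 SD under DESeq2 size factors. Shares below are percent of tested genes called. Without the expression filter, the difference between eTreg and Teff activation called 2 members, and that between BATFKO and BATFcKO called 0.0312%. DESeq2 called 2 members in BATFcKO, 3 in the activation difference, 0.0818% in BATFKO minus BATFcKO and 2.09% in BATFcKO minus Foxp3KO. Fitted on its own libraries, BATFKO had 0% and 0 members called by edgeR (458 genes at an unadjusted p below 0.05), BATFcKO 2 members, Foxp3R397W 11.7%, Foxp3KO 31.9%, eTreg against cTreg 49.8%, cTreg against Tnaive 25.9%, WT Treg against Tconv 4.98%, the activation difference 9.76% and 3 members, Foxp3R397W minus Foxp3KO 0.0556%, and BATFcKO minus Foxp3KO 3.1% and 2 members. The cause was not tested.

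The labels do not pair libraries by number, and the numbers were not taken as pairs. Same-numbered libraries had correlated deviations of 0.495 to 0.571 in the germline set, 0.242 in the YFP set and 0.0801 to 0.233 in the sorted set. With the replicate block, calls came to 8.47% and 2 members in BATFKO, 9.12% and 3 in BATFcKO, 48.9% in eTreg against cTreg, 53% in Teff against Tnaive, 23.7% in cTreg against Tnaive, 29.5% in eTreg against Teff, 34.1% in WT Treg against Tconv, 13.4% in the activation difference, 1.14% and 1 member in BATFKO minus BATFcKO, and 7.44% and 2 members in BATFcKO minus Foxp3KO. The block added calls for Ebi3 in BATFKO (edgeR adjusted p = 0.018), for Areg (0.018) and Ebi3 (0.029) in BATFcKO, for Areg in Teff against Tnaive (1.7e-05) and cTreg against Tnaive (0.00080), and for the differences of Ebi3 between BATFKO and BATFcKO (0.015) and of Areg between BATFcKO and Foxp3KO (0.023). It ended the Il10 call in Teff against Tnaive (0.082). No paired analysis was possible for the Foxp3R397W and Foxp3KO sets because their groups share no numbers.

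With 1 library left out, whose partner is then assumed to vary like other groups, calls came to 1.38 to 2.93% in BATFKO (1 to 2 members), 0.556 to 1.28% in BATFcKO (1), 2.56 to 3.16% in Foxp3R397W (2), 3.28 to 5.61% in Foxp3KO (2 to 4), 21.5 to 24.6% in eTreg against cTreg (6), 26.7 to 28.5% in Teff against Tnaive (4 to 5), 7.87 to 8.34% in cTreg against Tnaive (3), 9.49 to 12.2% in eTreg against Teff (3 to 5), 15.2 to 16.3% in WT Treg against Tconv (6), 3.39 to 4.85% in the activation difference (0 to 2), 0 to 0.151% in BATFKO minus BATFcKO (0), 0% in Foxp3R397W minus Foxp3KO (0) and 0.469 to 0.748% in BATFcKO minus Foxp3KO (0 to 1). At 2 libraries a group, Il10 and Areg calls near the threshold depended on these choices. Il12a, at 17 reads, could not be compared at this depth.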

Other observations

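Of 9 other secreted suppressive factors tested, 5 were higher and 1 was lower in eTreg than in cTreg, and of 10 other repair and growth factors 5 were higher and 1 was lower, where 31.1% of all tested genes were called. Tnfsf11, which encodes RANKL, was higher in eTreg than in cTreg (log2 change 2.84 ± 0.17, 89.2 against 12.4 CPM, edgeR adjusted p = 5.2e-10). Gzmb was higher by 5.34 ± 0.54 (edgeR adjusted p = 3.5e-07). Prf1, the pore-forming partner of granzymes, was lower in eTreg, by 2.47 on the log2 scale and at 2.35 against 13.1 CPM (edgeR adjusted p = 9.4e-05). Osm, a cytokine of the IL-6 family, was lower as well, at 23.6 CPM in eTreg against 47.6 CPM in cTreg (-1.01 ± 0.15, edgeR adjusted p = 2.8e-05). Against Teff, eTreg had less Tgfb3 (1.44 against 15.6 CPM, -3.43 ± 0.34, edgeR adjusted p = 7.7e-07) and more Hgf (6.90 against 0.137 CPM, edgeR adjusted p = 2.7e-06).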
